A study of Mus musculus with 24 samples.

Results

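The comparison described here sets the Rassf1a line of mouse embryonic fibroblasts against wild-type (WT) fibroblasts, both in the libraries labelled GFP, which the labels give as the control treatment. Its members are the 3 Rassf1a GFP and the 3 WT GFP libraries, 6 of 24 libraries in all, and they were taken by the group names in the sample titles. Per the labels, neither group was given Cre. Fibroblasts had been isolated from E13.5 embryos, and their total RNA was sequenced. The whole set holds 4 lines, WT, Vhl, Rassf1a and Vhl/Rassf1a, each with 3 GFP (control) and 3 Cre (knockout) libraries. The labels do not state the alleles, the strain background, how GFP or Cre was delivered, the sex of the embryos, or whether the libraries of a group stem from separate embryos or cultures. If they share a culture, the p-values reflect technical spread between libraries only.

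Rassf1a is a form of the scaffold protein encoded by Rassf1 on chromosome 9. It is a tumour suppressor that binds microtubules and the kinases Stk3 and Stk4, which head the Hippo pathway. Hippo signalling keeps the co-activators Yap1 and Wwtr1 out of the nucleus, where with Tead factors they drive genes such as Ccn1, Ccn2 and Ankrd1. Embryonic fibroblasts are a mixed population of mesenchymal cells that make collagens, elastic fibres and proteoglycans and carry contractile and inflammatory programmes. The identity of such cultures is known to depend on embryo, strain and body region.

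Library totals were 34857292, 37554406 and 41578982 counts in Rassf1a GFP replicates 1 to 3 and 43260693, 36624233 and 29934173 in WT GFP. Of 45706 gene IDs, 16573 passed the filter on low counts and were tested. Levels are given as CPM, a gene's counts scaled to the TMM-adjusted size of its library, as mean ± SD of 3 libraries unless single libraries are listed. CPM is not divided by gene length, so levels are compared between lines and not between genes. Differences are log2 fold changes of edgeR's quasi-likelihood test, and a gene was called higher or lower where its Benjamini-Hochberg adjusted p over all genes tested was under 0.05. Rassf1a GFP replicate 1 stood apart. Its log2 deviations from its group had an SD of 0.293, against 0.146 and 0.207 for replicates 2 and 3, and correlated with the GC content of genes at 0.788 over 11874 genes that share this library. WT GFP replicate 3 deviated in the same sense (0.553, SD 0.172). Many counts of list members below are given also without this or another library.

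The sample labels give embryonic fibroblasts, whereas the series' design note names tubule epithelium of the kidney, studied cell by cell. The fibroblast label was checked against 14 fibroblast markers. All 14 passed the filter, and their summed level was 46265 to 53529 CPM in Rassf1a GFP and 40311 to 43583 CPM in WT GFP. Vim, the intermediate filament of mesenchymal cells, was at 4777 ± 435 and 4859 ± 391 CPM. Single markers of blood, endothelium and epithelium were near 0, while other members of the cell type lists, given further below, were not. Ptprc of blood cells was at 0.125 ± 0.0431 and 0.174 ± 0.151 CPM, Pecam1 of endothelium at 0.0960 ± 0.00944 and 0.182 ± 0.0997 CPM, and Cdh1 of epithelium at 0.0933 ± 0.0437 and 0.0279 ± 0.00534 CPM in Rassf1a GFP and WT GFP.

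Rassf1 itself was at 31.2, 26.7 and 25.8 CPM in Rassf1a GFP and at 32.3, 29.9 and 37.2 CPM in WT GFP. The groups overlapped, and the difference missed the threshold (log2 fold change -0.25, SE 0.09, edgeR adjusted p = 0.0640). The alternatives were divided. Without Rassf1a GFP replicate 1 it passed (-0.34, adjusted p = 0.0136), and with DESeq2 it passed as well (adjusted p = 0.0322). It also passed without WT GFP replicate 2 (-0.34, adjusted p = 0.0169), but not without WT GFP replicate 1 (adjusted p = 0.107) or 3 (0.278). Nor did it pass without Rassf1a GFP replicate 2 (adjusted p = 0.155) or 3 (0.201). It missed in a fit of only the 6 libraries (adjusted p = 0.180) and with offsets corrected for GC content (0.125). The gene count covers all forms of Rassf1, so it checks neither the Rassf1a form nor the label. Vhl was at 26.6 ± 2.49 CPM in Rassf1a GFP and 23.3 ± 0.948 CPM in WT GFP and did not pass (log2 fold change 0.19, adjusted p = 0.154).

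The GFP libraries of these lines differed at 2664 of 16573 genes (16.1%), with 1557 higher (9.39%) and 1107 lower (6.68%) in Rassf1a GFP. Most differences were small, with a median size of 0.43 log2 among called genes. The median log2 fold change over all genes tested was 0.01. At least 2-fold differences were seen for 466 genes, 314 higher (1.89%) and 152 lower (0.917%), and at least 8-fold for 80 (0.483%), 74 of them higher. In 2581 of the 2664 called genes the values of the groups did not overlap, which held for 27.8% of all genes tested. A fit of only the 6 libraries compared called 1461 genes (867 higher, 594 lower). Without Rassf1a GFP replicate 1 there were 2409 calls among 16934 genes (14.2%), with 1375 higher (8.12%) and 1034 lower (6.11%), and 2040 of the 2664 (76.6%) were called in the same direction. Of the 466 genes with at least 2-fold differences, 417 were kept. With offsets corrected for GC content, 4070 genes were called (24.7%) and the balance turned, with 1757 higher (10.6%) and 2313 lower (14.0%). Without the filter on low counts it turned as well (1304 higher, 1537 lower). The higher calls thus made up 58.4% of calls in the fit used here and 43.2% and 45.9% in those alternatives.

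Several of the genes farthest apart were under 1 CPM in WT GFP and well above it in Rassf1a GFP. Slc39a2, a zinc importer of the cell surface, was at 18.6, 19.1 and 21.0 CPM in Rassf1a GFP and 0.369, 0.432 and 0.538 CPM in WT GFP (log2 fold change 5.47, SE 0.13, adjusted p = 1.93e-18). Serpina3n, a secreted inhibitor of serine proteases, was at 21.7, 24.0 and 24.1 against 0.899, 0.863 and 0.672 CPM (4.82, SE 0.13, adjusted p = 1.52e-17). Ucp2, an uncoupling protein of the inner mitochondrial membrane, was at 77.3, 68.3 and 62.9 against 3.89, 4.34 and 3.93 CPM (4.10, SE 0.10, adjusted p = 2.85e-18). In each of these genes the libraries of a line lay close together. That the groups did not overlap was a condition for naming them. Fxyd6, a regulator of the sodium pump, was at 18.2, 16.9 and 18.6 against 0.415, 1.03 and 0.739 CPM (4.65, SE 0.20). Kank4, an adaptor of the KANK family, was at 17.8, 18.1 and 16.6 against 3.29, 3.21 and 3.46 CPM (2.40, SE 0.13). Msln, the mesothelial surface protein mesothelin, was at 15.4, 12.9 and 14.3 against 2.65, 3.10 and 4.10 CPM (2.13, SE 0.30). Gt(ROSA)26Sor, the transcript of a locus often used to insert transgenes in mice, was at 12.2, 20.2 and 29.0 against 5.00, 3.53 and 3.60 CPM (2.33, SE 0.31), and it varied from library to library within the Rassf1a line.

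The lower side was less extreme. Nnmt, which methylates nicotinamide, was at 2.70, 3.13 and 3.13 CPM in Rassf1a GFP and 11.5, 13.2 and 12.7 CPM in WT GFP (log2 fold change -2.06, SE 0.09, adjusted p = 7.71e-14). Arhgap22, a GTPase-activating protein for Rac, was at 2.04, 1.30 and 1.42 against 7.56, 7.58 and 8.84 CPM (-2.34, SE 0.19). Pdpn, the membrane mucin podoplanin, was at 42.4, 49.5 and 52.0 against 142, 137 and 136 CPM (-1.52, SE 0.06, adjusted p = 1.84e-14). None of these 3 genes had overlapping groups, which the rule that named them required. Pxylp1, a phosphatase in glycosaminoglycan synthesis, fell by 1.74 (15.3 ± 0.925 against 50.9 ± 1.25 CPM), and Pop4, a subunit of ribonuclease P, fell by 1.35 (16.1 ± 0.461 against 41.0 ± 1.74 CPM). Selp, the adhesion molecule P-selectin, fell by 1.56, Arhgap36 by 1.45, the actin-capping Tmod2 by 1.38 and Rtkn2 by 1.30, all on the log2 scale. The zinc finger genes Zfp991 and Zfp984, neighbours on chromosome 4, fell by 1.45 and 1.43. In these last genes Rassf1a GFP replicate 1 was the lowest library (0.902 against 2.76 and 2.94 CPM, and 2.27 against 5.35 and 5.83 CPM), and without it they fell by 1.10 and 1.13.

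**Figure D1:**
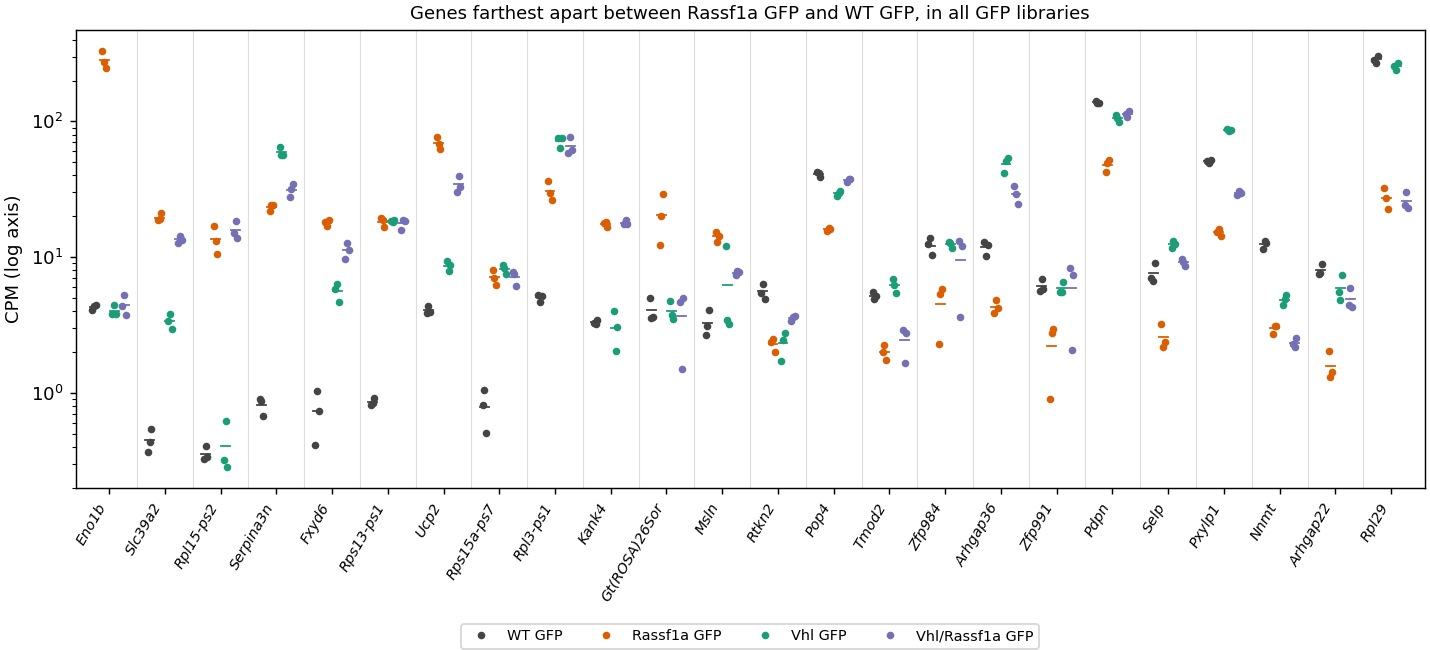
Level in CPM (log axis) of the 24 genes named for the size of their difference, in all GFP libraries. Points are single libraries and short lines are group means of 3 libraries. Slc39a2, Serpina3n and Ucp2 are well above WT GFP in all 3 Rassf1a GFP libraries, and Rpl29 is well below.

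Many of the largest differences were at processed pseudogenes, copies of messenger RNA inserted elsewhere in the genome, whose sequence nearly matches the parent gene. Of the 80 genes called at least 8-fold, 43 were pseudogenes (42 higher, 1 lower) and 33 were protein-coding. Of all pseudogenes tested 103 of 924 were called (11.1%), and of all protein-coding genes 2453 of 14019 (17.5%). Some of the 43 were under 1 CPM in both lines, where a fold change rests on few reads. Examples are Gm12579 (0.154 CPM in Rassf1a GFP and 0 CPM in WT GFP) and Gm15573 (0.174 and 0 CPM). Gm7224 and Mid1-ps1 are annotated as unprocessed pseudogenes. All 43 matched a coding transcript at 90% identity or more over at least 80% of their length, with identities from 91.5% to 99.9% and a median of 97.4%, and 14 matched a ribosomal protein gene. Of the 43, 14 matched a coding gene that was itself called. With shared parents counted once, 9 coding genes were lower and 1 was higher. Over all genes tested, 6.68% were lower and 9.39% higher. Reads from such copies and their parents cannot be told apart with certainty. The following stretches show how little separates some copies from their parents. They are read 5′ to 3′ from GENCODE M21 transcripts of GRCm38, and capitals mark the bases that differ. The copies Gm8210 and Gm8730 were chosen after their values were seen.
Rpl29, coding bases 1 to 90: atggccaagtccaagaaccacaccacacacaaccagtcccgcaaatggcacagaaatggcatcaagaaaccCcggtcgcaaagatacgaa
Gm8210, same stretch: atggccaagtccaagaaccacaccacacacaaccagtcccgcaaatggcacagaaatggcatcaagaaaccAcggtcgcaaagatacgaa
Rplp0, coding bases 358 to 447: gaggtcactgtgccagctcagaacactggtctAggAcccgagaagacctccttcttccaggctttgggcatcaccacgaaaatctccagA
Gm8730, same stretch: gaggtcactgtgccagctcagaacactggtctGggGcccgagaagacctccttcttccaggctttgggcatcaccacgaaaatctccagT
Rps13, coding bases 340 to 429: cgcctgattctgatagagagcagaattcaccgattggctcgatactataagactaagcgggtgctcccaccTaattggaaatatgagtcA
Rps13-ps1, same stretch: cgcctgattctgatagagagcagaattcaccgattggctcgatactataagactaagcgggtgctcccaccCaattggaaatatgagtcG

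Rpl29, a protein of the large ribosomal subunit, gave the lowest fold change among the named genes. It was at 32.3, 27.1 and 22.6 CPM in Rassf1a GFP and at 284, 269 and 304 CPM in WT GFP (log2 fold change -3.39, SE 0.11, adjusted p = 5.54e-16). Its copy Gm8210, on chromosome 1, differs at 3 of 483 bases and went the other way, at 20.5, 19.7 and 17.5 CPM in Rassf1a GFP and 0.184, 0.243 and 0.336 CPM in WT GFP (6.27, SE 0.14). Parent and copy together reached 46.6 ± 6.41 CPM in Rassf1a GFP against 286 ± 17.8 CPM in WT GFP, a log2 ratio of -2.62.

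In other families the sum over parent and copies barely differed. Eno1, the glycolytic enolase, was at 1703 ± 181 CPM in Rassf1a GFP and 2071 ± 115 CPM in WT GFP (log2 fold change -0.28, adjusted p = 0.0265). Eno1b, a near-copy on chromosome 18, was at 329.6, 275 and 248 against 4.06, 4.34 and 4.47 CPM (6.05, SE 0.14, adjusted p = 1.28e-18). With the copy Gm5855 added, the family summed to 1996 ± 224 and 2076 ± 115 CPM, a log2 ratio of -0.06. Rplp0, of the ribosomal stalk, was at 1092 ± 124 against 1513 ± 92.8 CPM (-0.47, adjusted p = 0.000118), and its copy Gm8730 at 227 ± 39.5 against 3.24 ± 0.130 CPM (6.12). The sum over Rplp0 and its 3 copies was 1385 ± 173 against 1518 ± 92.8 CPM, a log2 ratio of -0.13. The sums for Rpl15 and its 3 copies (327 ± 28.8 against 331 ± 10.5 CPM) and for Rps13 and Rps13-ps1 (253 ± 18.3 against 239 ± 6.02 CPM) differed by -0.02 and 0.08. No test was made of these sums. Rpl15-ps2, Rps13-ps1, Rps15a-ps7 and Rpl3-ps1 are among the 12 genes named on the higher side (log2 fold changes 5.24, 4.43, 3.13 and 2.60). Several copies were high in other altered lines too. In Vhl and Vhl/Rassf1a GFP, Gm8730 was at 310.5 and 271 CPM, Rps13-ps1 at 18.4 and 17.7 CPM and Rps15a-ps7 at 8.15 and 7.13 CPM. Gm8210 (0.170 and 19.2 CPM) and Rpl15-ps2 (0.407 and 15.8 CPM) were low in Vhl GFP only, and Eno1b was low in both (4.03 and 4.46 CPM).

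**Figure D2:**
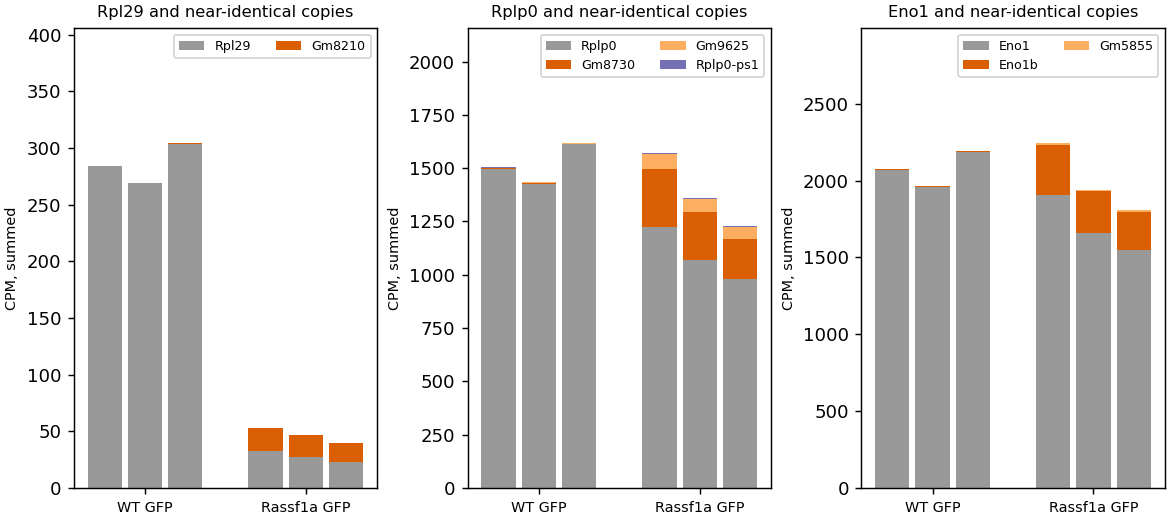
Summed level, in CPM, of 3 coding genes and their near-identical copies in each WT GFP and Rassf1a GFP library (stacked bars, 1 bar a library). For Eno1 and Rplp0 the stacks are of similar height in both lines, and for Rpl29 the Rassf1a GFP stacks stay far below those of WT GFP.

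Of 27 members of the Rassf family and the Hippo core, 1 was higher and 6 were lower, with a median of -0.08. Over all genes tested 9.39% were higher and 6.68% lower, and these shares are the reference for every list below. Counts with the GC correction have their own reference, 10.6% higher and 14.0% lower. Without Rassf1a GFP replicate 1 the reference is 8.12% and 6.11%. The lower members numbered 5 to 9 with single libraries left out, and 11 with the GC correction. Rassf6 was at 4.97, 6.20 and 5.67 CPM in Rassf1a GFP and 10.0, 9.85 and 9.85 CPM in WT GFP (log2 fold change -0.82, SE 0.12, adjusted p = 3.96e-05). Rassf3 was at 29.2 ± 1.24 against 38.5 ± 0.769 CPM (-0.40, adjusted p = 1.16e-05) and Rassf2 at 16.8 ± 1.92 against 23.1 ± 1.07 CPM (-0.46, adjusted p = 0.000249). Rassf9 was the member called higher (0.78, adjusted p = 0.00315). The kinases Stk3 (0.07), Stk4 (-0.10) and Lats1 (0.03), the adaptor Sav1 (-0.02) and Yap1 (-0.08) did not pass, and the kinase Lats2 fell by 0.20 (106 ± 2.99 against 122 ± 8.71 CPM).

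Of 22 YAP target genes 9 were lower and 1 was higher (median -0.16). The lower members numbered 6 without WT GFP replicate 3, 11 without Rassf1a GFP replicate 1 and 15 with the GC correction. Ccn2, a secreted matricellular factor, was at 436, 472 and 491 CPM in Rassf1a GFP and 914, 881 and 862 CPM in WT GFP (log2 fold change -0.93, SE 0.07, adjusted p = 1.43e-09). Ankrd1, a nuclear and sarcomeric repeat protein, was at 60.6, 62.5 and 62.8 against 116, 106 and 111 CPM (-0.84, SE 0.06, adjusted p = 9.53e-10). The groups did not overlap in either gene. Crim1, a membrane protein that binds growth factors, fell by 0.56 and Ccn1 by 0.31 (643 ± 38.1 against 799 ± 25.3 CPM). Nt5e, the surface nucleotidase CD73, was the target called higher (11.5 ± 0.330 against 5.26 ± 0.533 CPM, 1.12).

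Fibroblast matrix genes were higher in Rassf1a GFP. Of 35 collagen genes tested from the list, 19 were higher and 1, Col2a1, was lower, with a median of 0.33 (17 and 1 without Rassf1a GFP replicate 1). The list leaves out Col6a4 and Col19a1, which were also called lower. Col3a1, a fibrillar collagen of soft tissue, was at 3198, 2992 and 2996 CPM in Rassf1a GFP and 1569.6, 1605 and 1466 CPM in WT GFP (log2 fold change 0.98, SE 0.07, adjusted p = 8.22e-10). Col5a3, which joins fibrils of type V collagen, was at 227, 194 and 199 against 75.1, 77.8 and 75.8 CPM (1.44, SE 0.11, adjusted p = 2.55e-09). Col11a1 was at 439 ± 11.0 against 291 ± 9.18 CPM (0.59, adjusted p = 1.79e-11). Both chains of type I collagen rose less, Col1a2 by 0.42 (9596 ± 694 against 7149 ± 113 CPM) and Col1a1 by 0.39, and the latter did not pass without Rassf1a GFP replicate 1 (0.24, adjusted p = 0.140). Of the chains of type VI collagen, Col6a1 (0.65), Col6a2 (0.79) and Col6a3 (0.36) were higher, and Col6a4 is described with the genes near Rassf1. The basement membrane chain Col4a1 did not pass (-0.14, adjusted p = 0.293).

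Col2a1, the collagen of cartilage, was lower, at 178, 137 and 117 CPM in Rassf1a GFP and 317, 274 and 363 CPM in WT GFP (log2 fold change -1.14, SE 0.15, adjusted p = 4.92e-06). The other cartilage markers were mixed. Sox9, the master regulator of cartilage, fell by 0.37 (19.4 ± 2.00 against 25.1 ± 0.765 CPM), while Acan, the cartilage proteoglycan, rose by 1.02 (2.40 ± 0.302 against 1.18 ± 0.0312 CPM) and Sox6 by 0.64. In all, 2 of 12 cartilage markers tested were higher and 2 lower. Their summed level was 163 to 228 CPM in Rassf1a GFP and 323 to 412 CPM in WT GFP, ranges that do not overlap and in which Col2a1 has the largest share.

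Of 47 other matrix genes, 20 were higher and 3 lower (median 0.16, and 21 and 4 without Rassf1a GFP replicate 1). Eln, which encodes elastin, was at 127, 109 and 106 CPM in Rassf1a GFP and 37.3, 36.5 and 33.7 CPM in WT GFP (log2 fold change 1.67, SE 0.09, adjusted p = 2.58e-12). The elastic fibre proteins rose with it, Fbn2 (621 ± 28.7 against 317 ± 25.4 CPM, 0.97), Mfap5 (36.5 ± 2.48 against 20.3 ± 0.852 CPM, 0.84) and Mfap4 (31.2 ± 1.64 against 16.4 ± 2.63 CPM, 0.93). Lama4, a laminin chain, was at 212, 238 and 234 against 101, 116 and 92.8 CPM (1.14, SE 0.06, adjusted p = 7.43e-12). The small proteoglycans Lum (16.9 ± 3.68 against 4.95 ± 1.33 CPM, 1.76) and Dcn (23.7 ± 3.80 against 11.4 ± 1.52 CPM, 1.06) and the matrix protein Dpt (7.70 ± 0.929 against 2.78 ± 0.811 CPM, 1.46) rose. Among the most highly counted matrix genes, Fn1 (-0.08, adjusted p = 0.281), Thbs1 (-0.06), Tnc (-0.07) and the crosslinking enzyme Lox (0.04) did not pass. With the GC correction the list had 23 higher and 12 lower.

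Of the 14 fibroblast markers, several of which are also in the matrix lists, 10 were higher and none lower (median 0.41, and 8 higher without Rassf1a GFP replicate 1). Pdgfra, the receptor for platelet-derived growth factor, was at 156, 163 and 175 CPM in Rassf1a GFP and 96.8, 103 and 96.5 CPM in WT GFP (log2 fold change 0.74, SE 0.09, adjusted p = 1.44e-06). Fap, a surface protease, was at 4.97, 7.55 and 6.17 against 2.83, 3.18 and 2.25 CPM (1.17, SE 0.17). Vim (-0.02), Fn1 (-0.08), Prrx1 (-0.06) and S100a4 (0.33) did not pass. In these bulk libraries, fewer cells of a type and less RNA per cell cannot be told apart.

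Proteases and their inhibitors moved both ways, with 11 of 31 higher and 6 lower (9 and 6 without Rassf1a GFP replicate 1). The stromelysin Mmp3 was at 12.9, 15.2 and 17.8 CPM in Rassf1a GFP and 5.65, 5.72 and 4.87 CPM in WT GFP (log2 fold change 1.49, SE 0.12, adjusted p = 5.59e-09), and the collagenase Mmp13 rose by 1.25 (6.10 ± 1.40 against 2.55 ± 0.409 CPM). Genes of the plasminogen system moved apart. Its activator Plau was at 121, 113 and 112 against 191, 179.6 and 182 CPM (-0.68, SE 0.05, adjusted p = 1.75e-09). Serpinb2, an inhibitor of plasminogen activators, fell by 1.20, while the activator Plat rose by 0.73.

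Genes of muscle-like contraction were lower, with 14 of 22 lower and none higher (median -0.29, and 16 lower and 1 higher without Rassf1a GFP replicate 1). Cnn1, an actin-binding protein of smooth muscle, was at 361, 329.9 and 321 CPM in Rassf1a GFP and 508, 472 and 523 CPM in WT GFP (log2 fold change -0.57, SE 0.07, adjusted p = 5.31e-06). Myocd, the co-activator of this programme, was at 2.62, 2.52 and 2.18 against 5.23, 4.07 and 4.71 CPM (-0.94, SE 0.13, adjusted p = 9.55e-06), and Tpm1, a tropomyosin, at 1753 ± 15.2 against 2086 ± 50.1 CPM (-0.25). Acta2, smooth muscle actin, fell by 0.28 (3537 ± 315 against 4309 ± 193 CPM), and Tagln did not pass (-0.15, adjusted p = 0.114). Srf, the factor that Myocd works with, fell by 0.27 (88.0 ± 12.4 against 106 ± 8.84 CPM). Among 9 pericyte and smooth muscle markers 4 were lower, led by the adhesion molecule Mcam (129 ± 6.32 against 236 ± 3.28 CPM, -0.87), and the others were Des, Myh11 and Acta2, which are in both lists.

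**Figure D3:**
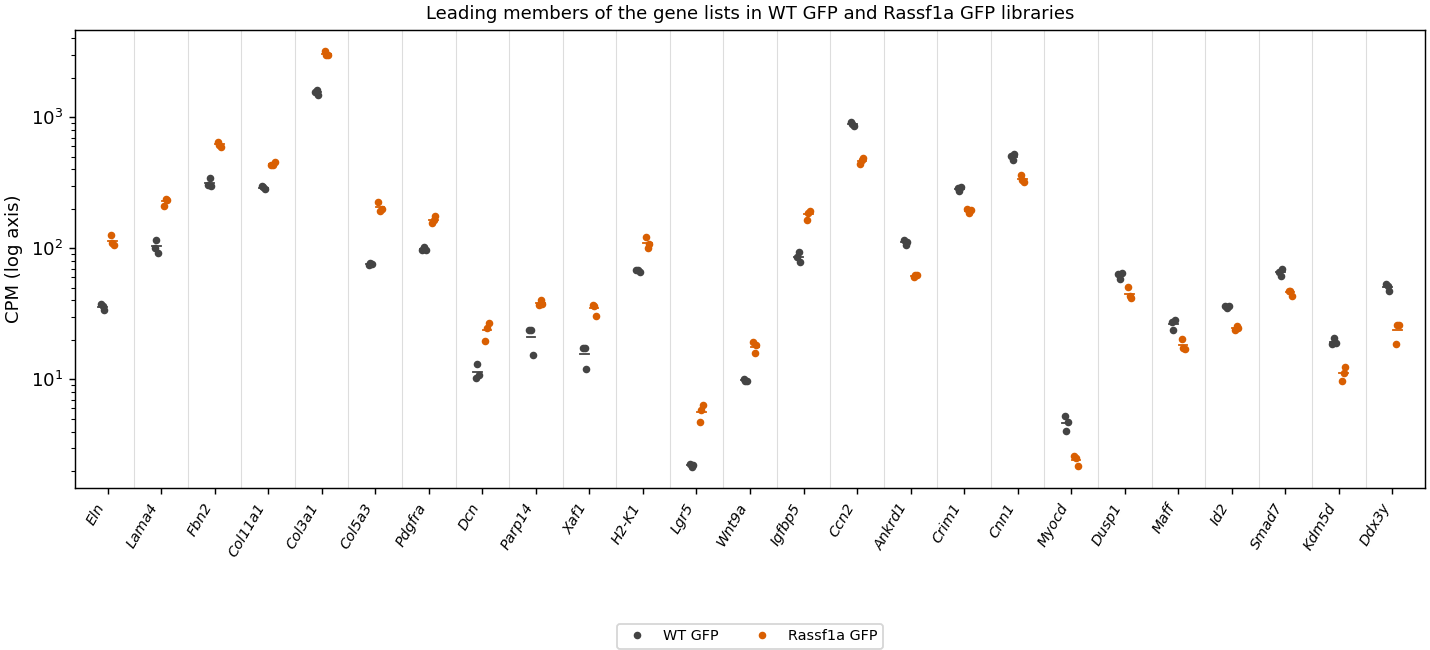
Level in CPM (log axis) of leading members of the gene lists in the 3 WT GFP and 3 Rassf1a GFP libraries, with points for libraries and short lines for group means. Matrix, interferon, H2-K1, Wnt and Igfbp5 on the left are higher in Rassf1a GFP, and YAP target, contractile, immediate early, BMP and TGF-beta feedback (Id2, Smad7) and Y-linked genes on the right are lower.

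Immediate early genes, which respond to serum and growth factors within minutes, were lower for 9 of 23 and higher for none (median -0.25, and 12 lower without Rassf1a GFP replicate 1). Dusp1, a phosphatase of MAP kinases, was at 50.6, 43.0 and 41.5 CPM in Rassf1a GFP and 64.1, 58.2 and 64.3 CPM in WT GFP (log2 fold change -0.47, SE 0.07, adjusted p = 3.97e-05). Maff fell by 0.54, Nr4a1 by 0.46, Fos by 0.36 and Klf4 by 0.35, while Egr1 did not pass (-0.11, adjusted p = 0.264).

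Interferon-stimulated genes were higher, with 24 of 38 higher and none lower, and with all 38 log2 fold changes above 0 (median 0.89). The call count depended on 1 control library: 18 members were higher with Rassf1a GFP replicate 1 left out, and 10 with WT GFP replicate 3 left out. Parp14, Xaf1, Isg15 and Irf7 had their lowest value in that WT library. Parp14, an ADP-ribosyltransferase, was at 36.7, 40.1 and 37.8 CPM in Rassf1a GFP and 24.0, 23.7 and 15.3 CPM in WT GFP (log2 fold change 0.85, SE 0.19, adjusted p = 0.00207), and Xaf1, which promotes cell death, at 37.0, 36.6 and 30.7 against 17.3, 17.5 and 11.9 CPM (1.15, SE 0.26, adjusted p = 0.00269). In both genes every Rassf1a GFP library was above every WT GFP library. Oas2, a sensor of double-stranded RNA, rose by 1.71 (7.29 ± 0.654 against 2.19 ± 0.649 CPM). Isg15, a ubiquitin-like modifier, rose by 1.33 (79.4 ± 21.1 against 31.5 ± 9.01 CPM), but did not pass without Rassf1a GFP replicate 1 (1.10, adjusted p = 0.0841), and Irf7 likewise (1.13 with it, 0.90 and adjusted p = 0.0765 without). Ifit1 (0.84, adjusted p = 0.0735) and Rsad2 (0.24, adjusted p = 0.679) did not pass. In the Cre libraries of the same lines 26 members were higher and none lower.

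Interferon acts on these genes through a response element in their promoters, bound by a complex that holds Stat2 and Irf9. Its core, 2 runs of TTTC with any 2 bases between them (GAAA on the other strand), was searched on both strands in RefSeq promoter windows of GRCm38.p6 from 250 bases before to 50 bases after a gene's start. Of the 38 genes, 28 had a window by symbol and 18 of these held the core, against 3.56% of the 11564 tested genes with a window. It was in 9 of 16 called members and in 9 of 12 members not called. A match is a description of the sequence and not a binding site. The stretches below, 70 bases each ending at or before the gene's start and read 5′ to 3′ on the gene's strand, belong to members called higher, and capitals mark the matches, which overlap in the first 3.
Oas1g, chr5:120887614-120887683, minus strand: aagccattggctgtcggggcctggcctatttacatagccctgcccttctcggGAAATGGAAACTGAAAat
Isg15, chr4:156200857-156200926, minus strand: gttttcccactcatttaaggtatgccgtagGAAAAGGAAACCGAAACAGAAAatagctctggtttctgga
Oas1a, chr5:120907526-120907595, minus strand: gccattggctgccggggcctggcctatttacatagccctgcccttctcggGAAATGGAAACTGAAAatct
Stat2, chr10:128270248-128270317, plus strand: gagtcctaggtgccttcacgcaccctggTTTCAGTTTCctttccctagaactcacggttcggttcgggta
Of these, Oas1a was at 17.8 ± 3.15 against 7.33 ± 1.51 CPM (1.27), Oas1g at 2.23 ± 0.383 against 0.673 ± 0.151 CPM (1.71) and Stat2 at 133 ± 13.9 against 79.4 ± 8.90 CPM (0.74). Oas1a and Oas1g are near-copies of each other, so their counts may be split between them.

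Genes of antigen presentation rose alongside, with 12 of 24 higher and 1 lower (median 0.35, and 9 higher and none lower without Rassf1a GFP replicate 1). H2-K1, a class I heavy chain, was at 121, 101 and 108 CPM in Rassf1a GFP and 68.4, 68.1 and 66.2 CPM in WT GFP (log2 fold change 0.70, SE 0.12, adjusted p = 0.000122). H2-D1 was at 222 ± 20.9 against 151 ± 0.574 CPM (0.55), the loading factor Tapbp at 118 ± 11.1 against 87.2 ± 3.35 CPM (0.44) and the light chain B2m at 665 ± 48.5 against 545 ± 48.8 CPM (0.29). H2 genes are similar in sequence and differ between strains, so reads may be split or lost among them. Ciita, the regulator of class II genes, was the member called lower, at 0.0775 ± 0.0184 against 0.227 ± 0.0101 CPM.

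Secreted inflammatory factors were divided, with 6 of 24 higher and 5 lower, and 3 higher without WT GFP replicate 3. Il6 was at 1.57, 1.83 and 2.21 CPM in Rassf1a GFP and 4.33, 4.64 and 4.00 CPM in WT GFP (log2 fold change -1.20, SE 0.17, adjusted p = 2.23e-05), and Csf1, the growth factor of macrophages, at 527 ± 33.0 against 772 ± 51.7 CPM (-0.55, adjusted p = 7.47e-07). The prostaglandin synthase Ptgs2 fell by 0.58. The chemokine Cxcl14 was at 102 ± 2.57 against 53.2 ± 3.15 CPM (0.94, SE 0.07, adjusted p = 9.53e-10), and Il1rn, which blocks the receptor for interleukin-1, rose by 0.72.

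Wnt ligands, antagonists and targets were higher for 14 of 33 and lower for none (median 0.32, and 13 higher without Rassf1a GFP replicate 1). Lgr5, a receptor for R-spondins and itself a Wnt target, was at 4.74, 5.83 and 6.33 CPM in Rassf1a GFP and 2.28, 2.13 and 2.22 CPM in WT GFP (log2 fold change 1.35, SE 0.14, adjusted p = 3.34e-07). The ligand Wnt9a was at 19.3, 15.8 and 18.3 against 10.1, 9.71 and 9.75 CPM (0.85, SE 0.10), and Wnt10a at 8.81, 6.78 and 5.72 against 2.30, 2.46 and 2.49 CPM (1.55, SE 0.20). The feedback target Axin2 (8.30 ± 0.871 against 4.65 ± 1.05 CPM, 0.83) and the factor Tcf7 (6.85 ± 0.404 against 3.76 ± 0.281 CPM, 0.87) rose with them, and so did the receptor Fzd1 (0.38).

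In the BMP and TGF-beta pathway 6 of 35 members were higher and 11 lower, a call count that fell to 7 lower without Rassf1a GFP replicate 2. The receptor Tgfbr2 rose by 0.52 (217 ± 4.58 against 151 ± 3.24 CPM, adjusted p = 3.65e-08) and the ligand Tgfb1 by 0.56 (56.2 ± 8.35 against 38.2 ± 4.78 CPM). The feedback genes were lower, Id2 at 24.0, 25.7 and 24.8 CPM against 36.0, 35.3 and 36.0 CPM (log2 fold change -0.53, SE 0.06, adjusted p = 4.65e-07). The inhibitor Smad7 was at 47.3, 47.3 and 43.5 against 66.4, 62.0 and 69.5 CPM (-0.52, SE 0.06, adjusted p = 1.15e-06). Smad6 fell by 0.57, Id1 by 0.46 and Id3 by 0.35. Id1 and Smad6 were highest in WT GFP replicate 3, and the groups overlapped in Id1 (53.4, 34.5 and 33.5 against 49.8, 49.2 and 68.3 CPM).

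Insulin-like growth factor genes were higher for 6 of 17 and lower for 2 (7 and 3 without Rassf1a GFP replicate 1). Igf2, the main fetal ligand, was at 684, 687 and 717 CPM in Rassf1a GFP and 443, 449 and 451 CPM in WT GFP (log2 fold change 0.64, SE 0.05, adjusted p = 6.04e-10). The binding protein Igfbp5 was at 165, 186 and 193 against 85.1, 94.5 and 79.0 CPM (1.07, SE 0.09, adjusted p = 5.16e-09). H19, the non-coding RNA that shares an imprinted region with Igf2 and is made from the other parental copy, rose by nearly the same amount (576 ± 35.8 against 372 ± 9.01 CPM, 0.63). Over 29 imprinted genes 4 were higher and 4 lower (2 lower without Rassf1a GFP replicate 1), against 9.39% and 6.68% of all genes tested. Peg10 was among the lower ones (55.5, 60.5 and 59.3 against 75.1, 79.1 and 79.7 CPM, -0.42).

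Cell cycle lists leaned to the lower side by small amounts. Log2 fold changes were above 0 for 12 and below 0 for 28 mitosis and spindle genes. The numbers were 6 and 30 for DNA replication genes and 7 and 22 for p53 targets and inhibitors. Medians were -0.08, -0.08 and -0.09, against 0.01 over all genes tested, of which 9.39% were higher and 6.68% lower. Of 40 mitosis and spindle genes 1 was higher and 7 lower (median -0.08), and 4 were lower without Rassf1a GFP replicate 1 and 1 without WT GFP replicate 1. Ttk, a kinase of the spindle checkpoint, was the member called higher (22.7 ± 1.66 against 16.7 ± 1.41 CPM, log2 fold change 0.44, adjusted p = 0.000873), and Aurka fell by 0.26. Of 36 DNA replication genes 5 were lower and none higher (2 lower without WT GFP replicate 1, and 7 without Rassf1a GFP replicate 1). Rrm2, of ribonucleotide reductase, was at 149.8, 157 and 140.5 CPM against 213, 198 and 216 CPM (-0.49, SE 0.05, adjusted p = 1.67e-07), and Ccne1 fell by 0.27. Of 29 p53 targets and inhibitors of cyclin-dependent kinases 2 were higher and 5 lower, with Perp (-0.76), Pmaip1 (-0.68) and Mdm2 (-0.27) among the lower ones. The counts were 1 and 7 without Rassf1a GFP replicate 1 and 1 and 14 with the GC correction, where 14.0% of all genes were lower.

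The hypoxia list was examined because Vhl is the other gene of the study. With Vhl at a similar level in both lines, 14 of 42 members were higher and 3 lower (median 0.11, and 12 and 3 without Rassf1a GFP replicate 1). Slc2a3, a glucose transporter, was at 12.3, 13.3 and 12.9 CPM in Rassf1a GFP and 7.77, 7.91 and 6.82 CPM in WT GFP (log2 fold change 0.77, SE 0.09, adjusted p = 1.85e-06). Ndufa4l2 rose by 1.11 (9.95 ± 1.32 against 4.53 ± 1.07 CPM), Bhlhe40 by 0.45 and P4ha1 by 0.34, while Adm fell by 0.36. Car9 (-0.20, adjusted p = 0.428) and Vegfa (0.10, adjusted p = 0.259) did not pass.

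NRF2 targets, of the response to oxidants, had 5 of 24 higher and none lower (3 and 1 without Rassf1a GFP replicate 1), led by Gstm2 (0.42), and the cystine transporter Slc7a11 rose by 0.57. Cholesterol synthesis genes had 1 of 24 higher and 3 lower, against 9.39% and 6.68% of all genes tested. The lower ones numbered 2 without Rassf1a GFP replicate 1 and 10 with the GC correction, where 14.0% of all genes were lower. Of 23 histone genes only H1f0 was called (0.32). The 13 mitochondrially encoded genes had a median of -0.48, which was -0.27 without Rassf1a GFP replicate 1. That library held the lowest summed level of the 6, at 7210.2 CPM, and mt-Nd4, the member called, was at 508, 719 and 805 CPM against 955, 916 and 959 CPM and did not pass without it (adjusted p = 0.222).

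**Figure D4:**
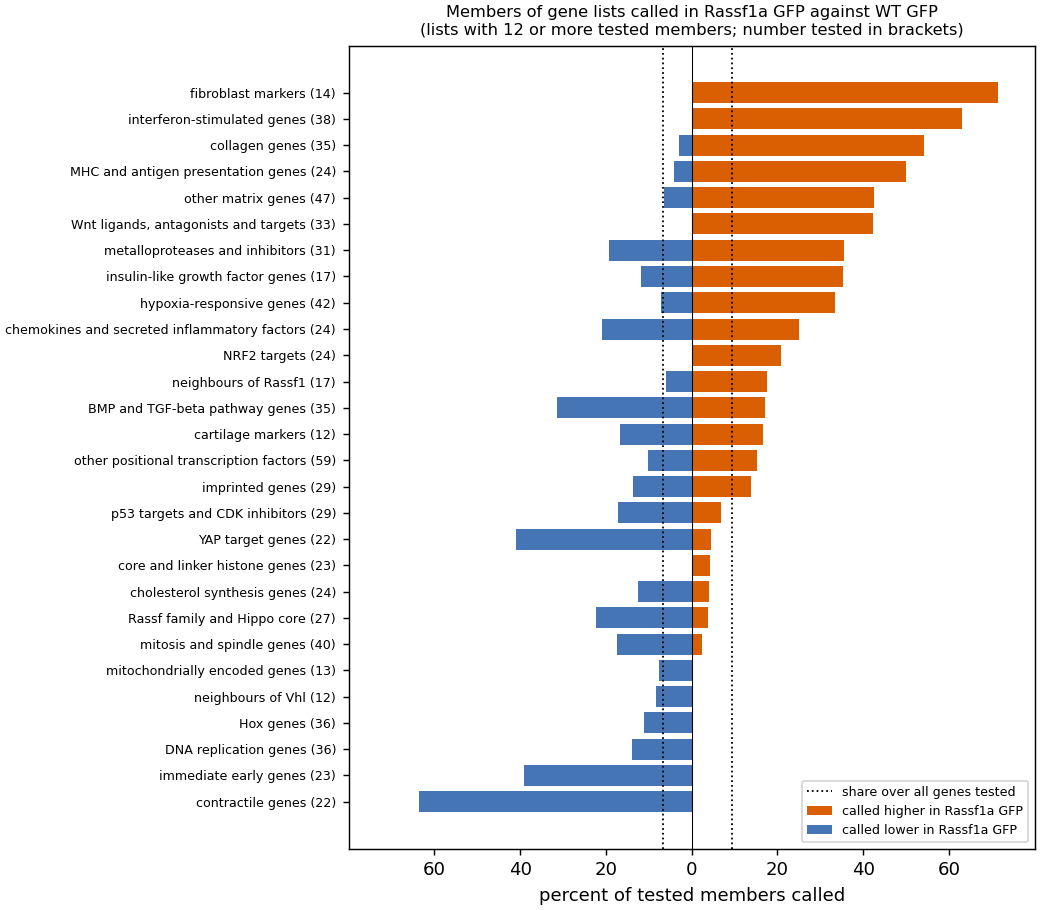
Percent of tested members called higher (right) or lower (left) in Rassf1a GFP for gene lists with 12 or more tested members, with the number tested in brackets. Dotted lines mark the shares over all genes tested, 9.39% higher and 6.68% lower. Fibroblast marker, interferon and collagen lists extend farthest to the right, and contractile genes, YAP targets and immediate early genes to the left.

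Genes that mark position in the body differed in single members, where 9.39% of all genes tested were higher and 6.68% lower. Of 36 Hox genes 4 were lower and none higher (median -0.14), with 2 lower without Rassf1a GFP replicate 2. With the GC correction 8 were lower, as were 14.0% of all genes. Hoxa3 and Hoxa2 fell by 0.50 and 0.64, and Hoxa2 did not pass without Rassf1a GFP replicate 1. Of 59 other positional transcription factors 9 were higher and 6 lower (7 and 7 without Rassf1a GFP replicate 1). The lower ones numbered 1 without Rassf1a GFP replicate 2 and 9 without WT GFP replicate 2. Osr2 was at 3.40, 3.21 and 2.82 against 1.11, 0.782 and 0.908 CPM (1.74, SE 0.23, adjusted p = 5.76e-06), and Msx1, of limb and craniofacial mesenchyme, at 29.3, 26.5 and 22.0 against 10.6, 10.8 and 11.3 CPM (1.25, SE 0.11, adjusted p = 1.02e-08).

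Sex-linked genes separated the lines. Ddx3y, on the Y chromosome, was at 18.6, 26.2 and 26.1 CPM in Rassf1a GFP and 53.5, 51.6 and 47.5 CPM in WT GFP (log2 fold change -1.10, SE 0.12, adjusted p = 5.08e-07). Uty (-1.11), Eif2s3y (-0.97) and Kdm5d (-0.80) were lower in the same way, and 6 of 8 Y genes tested were lower (75.0%). Xist, the RNA that silences an X chromosome in female cells, was at 193, 261 and 341 against 151, 177 and 136 CPM (0.77, SE 0.18, adjusted p = 0.00429). Kdm5c, the X-linked counterpart of Kdm5d, rose by 0.32, and Ddx3x, that of Ddx3y, did not pass (-0.05, adjusted p = 0.847). Both lines thus held RNA of Y genes and Xist in every library. The part of this in the other differences was not tested.

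Markers of other cell types moved in both directions, where 9.39% of all genes tested were higher and 6.68% lower. Mesothelial markers had 4 of 9 higher and 2 lower: Msln, Bnc1 (2.77 ± 0.572 against 1.24 ± 0.146 CPM, log2 fold change 1.17), Upk3b (1.49 ± 0.167 against 0.618 ± 0.147 CPM, 1.23) and Lrrn4 were higher and the keratins Krt19 (46.4 ± 9.63 against 76.5 ± 9.49 CPM, -0.72) and Krt18 (-0.67) lower. Wt1 was at 0.329 ± 0.0937 and 0.341 ± 0.0556 CPM. Endothelial markers had 1 of 9 higher, Erg (6.85 ± 0.395 against 2.62 ± 0.462 CPM, 1.37), and 2 lower, Kdr (-0.90) and Emcn (-0.82, adjusted p = 0.101 without Rassf1a GFP replicate 1). Skeletal muscle markers had 2 of 5 lower, Acta1 (111 ± 9.86 against 187 ± 23.3 CPM, -0.75) and Des (-0.37), with summed levels of 143 to 173 and 216 to 272 CPM. Of 5 fat markers tested Pparg (-0.75), Fabp4 (-0.62) and Plin4 (-0.60) were lower and Lpl was higher (0.31), and of the 7 bone markers Sp7 (0.211 ± 0.0251 against 0.782 ± 0.241 CPM, -1.85) and Alpl (-1.45) were lower and Spp1 higher (0.47). Of 8 epithelial markers the keratins Krt18 and Krt19 were lower, with summed levels of 57.8 to 82.3 and 88.7 to 111 CPM. Neural markers had 2 of 9 lower, Nes (-0.52) and Tubb3 (-0.35). No macrophage or glial marker was called among the 6 tested of each, and no erythroid marker passed the filter.

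The calls were spread over the genome. Within 5 Mb on each side of Rassf1, 36 of 158 genes were called (22.8%, 18 in each direction), against 16.1% of all genes. Without Rassf1a GFP replicate 1 the share was 15.8%, against 14.2% of all genes in that fit. No test was made of these shares. Near Vhl, on chromosome 6, the share was 16.2% (12 of 74). By chromosome, the share was 21.5% on chromosome 9, 21.2% on chromosome 18 and 23.4% on chromosome 14. On chromosome 14, 7.91% of genes were at least 2-fold apart. Of 17 tested neighbours of Rassf1, 3 were higher and 1 lower, against 9.39% and 6.68% of all genes tested. The hyaluronidase gene Hyal1 (0.38) and Sema3b (0.34) did not pass without Rassf1a GFP replicate 1, and Hyal3 did (0.95, adjusted p = 0.0295). Of the 12 Vhl neighbours only Irak2 was called (-0.20).

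Within those 5 Mb, 7 of 158 genes were called and at least 2-fold apart (4.43%). Over all genes tested, 1.89% were called at least 2-fold higher and 0.917% at least 2-fold lower. The 7 genes were named after their values were seen. Rpl29 lies 1.12 Mb from Rassf1, at chr9:106429454-106431568, where Rassf1 is at chr9:107551555-107562267 (GRCm38). Col6a4, 1.45 Mb from Rassf1 and a chain of type VI collagen, was at 0.384 CPM in Rassf1a GFP and 2.05 CPM in WT GFP (-2.40), and Col6a6 at 0.350 and 0.0301 CPM (3.53). Cpne4 (-2.85), Rab6b (-1.40) and Nek11 (-1.69) were lower, and Nek11 did not pass without Rassf1a GFP replicate 1 (adjusted p = 0.0791). In the Vhl/Rassf1a GFP libraries Rpl29 was at 25.8 CPM and Col6a4 at 0.512 CPM, and in Vhl GFP at 256 and 1.88 CPM. The remaining gene, Zmynd10, directly beside Rassf1, was at 0.145, 0.106 and 0.142 CPM in Rassf1a GFP and 0.230, 0.648 and 0.235 CPM in WT GFP (-1.48, SE 0.44, adjusted p = 0.0214), and it did not pass without WT GFP replicate 2 (-0.83, adjusted p = 0.320).

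The same lines were compared in their 6 Cre libraries, none of which is in the GFP comparison. There 2054 genes were called (12.4%), 1175 higher (7.09%) and 879 lower (5.30%) in Rassf1a Cre. Of the 2664 genes called in the GFP libraries, 2611 (98.0%) had the same sign in the Cre libraries, against 75.6% of all genes tested and 71.4% of those not called. The genes called in both with the same sign numbered 1649, or 61.9% of the GFP calls and 80.3% of the Cre calls, and 2 genes were called with opposite signs, Degs2 and Zmynd10. Of the 466 genes at least 2-fold apart with GFP, 350 were also called with Cre in the same direction. Rpl29 (-3.32), Slc39a2 (5.58), Ucp2 (3.71), Eln (1.59), Col3a1 (0.71) and Ccn2 (-0.78) kept sign and call. The test of the difference between the comparisons called 1 gene of 16573 (0.00603%), Zmynd10. The Rassf1a Cre libraries also carry the Rassf1a knockout, per the labels, so the Cre comparison holds both the distance of the lines and any effect of the deletion.

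**Figure D5:**
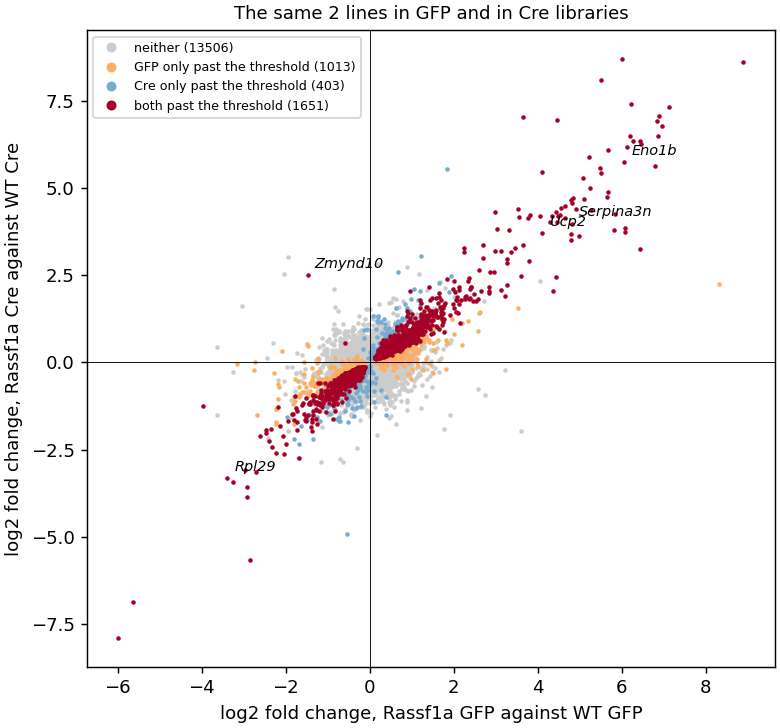
Log2 fold change of Rassf1a GFP against WT GFP (x axis) and of Rassf1a Cre against WT Cre (y axis) for all 16573 genes tested, coloured by which comparisons passed the threshold. Genes called in both lie along the diagonal, and Zmynd10 lies apart from it, lower with GFP and higher with Cre.

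Against the other altered lines, the Rassf1a GFP libraries differed at 4570 genes from Vhl GFP (27.6%) and at 2199 from Vhl/Rassf1a GFP (13.3%). These comparisons share the Rassf1a GFP libraries with the one above, so values are set side by side only. Gt(ROSA)26Sor was at 20.5 ± 8.37 CPM in Rassf1a GFP and at 4.04, 4.01 and 3.70 CPM in WT, Vhl and Vhl/Rassf1a GFP, and Eno1b was at 284 ± 41.6 CPM and at 4.29, 4.03 and 4.46 CPM. Among the 4 GFP groups these genes were high in the Rassf1a line alone. Kank4 was at 17.5 CPM in Rassf1a GFP and 18.0 CPM in Vhl/Rassf1a GFP, against 3.32 CPM in WT and 3.02 CPM in Vhl GFP, and Rpl29 was at 27.3 and 25.8 CPM against 286 and 256 CPM. These genes split the lines named for Rassf1a from those that are not. Ucp2 was at 69.5, 34.4, 8.64 and 4.06 CPM in Rassf1a, Vhl/Rassf1a, Vhl and WT GFP. Serpina3n was lowest in WT GFP at 0.811 CPM, with 23.3 CPM in Rassf1a, 31.2 CPM in Vhl/Rassf1a and 59.3 CPM in Vhl GFP. Among the list members, Eln was at 114 CPM in Rassf1a GFP and 116 CPM in Vhl GFP, against 56.2 CPM in Vhl/Rassf1a GFP and 35.8 CPM in WT GFP.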

How the data were processed

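Per the labels' protocols, the NucleoSpin kit served for RNA and the TruSeq Stranded kit for libraries. The submitters' processing notes name Trimmomatic 0.38, STAR 2.5.2b and GRCm38. The authors deposited 1 table of raw read counts for 45706 genes in 24 libraries. No source used here names the counting tool, its strand setting or the annotation. Overlapping, antisense and near-identical genes therefore cannot be told apart with certainty. Symbols for 45143 IDs came from GENCODE M21, and 563 had none. Counts were filtered with filterByExpr, scaled with TMM and fitted in edgeR 4.0.16 (R 4.3.3) with 1 mean for each of 8 groups over all 24 libraries (16 residual degrees of freedom, common biological variation 7.73%). Tests were two-sided, quasi-likelihood, and adjusted over all genes tested, and the code was tested on simulated data. Alternatives used DESeq2 1.42.0, offsets corrected for GC content, other filters, and left-out libraries. Copies were matched with blastn 2.17.0, and promoter windows came from RefSeq (GRCm38.p6). Replicate numbers did not pair the libraries.

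Named genes were Rassf1 and Vhl, the 12 highest and 12 lowest log2 fold changes among called genes without overlap, with a mean of at least 5 CPM in the higher group, no clone name, and a call without Rassf1a GFP replicate 1, up to 3 members of each list by adjusted p, up to 6 genes by the difference between the Cre and GFP comparisons with at least 5 CPM (none passed), and other members where a list is described. The 40 lists and the members were chosen with earlier results of these data known. Some genes that fall under this rule are not reported here.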

Additional observations from a re-analysis of the deposited data

Results flagged for a closer look

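Zmynd10, which lies directly beside Rassf1 on chromosome 9, was the gene whose distance between the Rassf1a and WT lines differed between the Cre and the GFP libraries. With GFP it was lower in the Rassf1a line (0.131 ± 0.0219 against 0.371 ± 0.239 CPM, SD, n = 3 each, log2 fold change -1.48). With Cre it was higher, at 1.26, 0.949 and 1.39 CPM in Rassf1a Cre and 0.171, 0.338 and 0.111 CPM in WT Cre (2.51, edgeR adjusted p = 8.83e-06). The difference between the comparisons, tested as an interaction term, was 3.99 on the log2 scale (SE 0.55, edgeR adjusted p = 0.00494). All 3 Rassf1a Cre libraries were above all libraries of the other 3 groups. Its levels are below the 5 CPM of the naming rule, so it was named after its values were seen, and WT GFP replicate 2 alone held 0.648 CPM.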

How the results depend on the processing

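No named gene changed direction in any alternative, while the balance of higher and lower calls in the GFP comparison turned with the GC correction (1757 against 2313) and without the filter (1304 against 1537). Of 124 fold changes of named genes, 106 kept direction and side of the threshold in every alternative. Over 1611 single comparisons 43 lost and 7 gained the call. Most named genes were chosen for a large or clear difference in the fit used here, so this stability follows in part from the choice. Of all 2664 calls, 76.6% were kept without Rassf1a GFP replicate 1. Counts of calls moved as follows. In the GFP comparison, a fit of only its 6 libraries called 1461 genes (867 higher, 594 lower), the GC correction 4070, and the demand for a 2-fold difference left 466. In the Cre comparison the GC correction called 3343 genes, a fit of only those groups 3077, leaving out Rassf1a GFP replicate 1 together with Vhl/Rassf1a GFP replicate 2 gave 3293, and 381 were at least 2-fold. For the difference between both comparisons, 22 genes were called without the filter and 2 with those libraries left out. The edgeR fit of only the groups compared called 0, where 489 genes had an unadjusted p under 0.05. DESeq2, fitted on all 24 libraries, called 1 gene. Against Vhl GFP the fit of only the groups called 2892 and 795 were at least 2-fold, and against Vhl/Rassf1a GFP 692 and 366, with 3448 after GC correction. Leaving out 1 library of the groups compared at a time gave 1995 to 2559 calls in the GFP comparison, 1409 to 1651 with Cre, 3723 to 4400 against Vhl GFP, 1666 to 2576 against Vhl/Rassf1a GFP and 1 for the difference. Libraries of other groups also enter the fit, and without Vhl/Rassf1a GFP replicate 2 there were 3280 calls in the GFP comparison, 2515 with Cre and 5241 against Vhl GFP. The replicate block changed the GFP count to 2516 (1475 higher, 1041 lower), the others to 1944 with Cre, 1 for the difference, 4409 against Vhl GFP and 2071 against Vhl/Rassf1a GFP. Same-numbered libraries of Rassf1a GFP and WT GFP deviated together at -0.234, 0.306 and -0.426, so the numbers give no pairing. The share called within 5 Mb of Rassf1 was 15.8% without Rassf1a GFP replicate 1 and 17.5% and 20.3% within 1 Mb and 20 Mb. The cause of these shifts was not tested. Depth, at 29934173 to 43260693 counts, limits genes under 1 CPM most.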

Other observations

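Clusters of neighbouring genes stood apart beyond the lists. The genome was divided into stretches of 5 Mb, a division chosen after the data were seen, and 449 of these held at least 10 tested genes. In 207 of them no gene was at least 2-fold apart between Rassf1a GFP and WT GFP, and in 6 at least 20% of genes were. On chromosome 9 from 5 to 10 Mb it was 7 of 19 genes, among them the neighbouring protease genes Mmp3, Mmp10 and Mmp13, the channel gene Trpc6 and the progesterone receptor gene Pgr. On the same chromosome from 45 to 50 Mb it was 7 of 29, with the sodium pump regulators Fxyd6 and Fxyd2 and the methyltransferase gene Nnmt. On chromosome 4 from 145 to 150 Mb it was 14 of 67, 10 of them lower, and this stretch holds the zinc finger genes Zfp979, Zfp982, Zfp984, Zfp990, Zfp991 and Zfp993, which are similar in sequence and may share reads. On chromosome 14 from 5 to 10 Mb it was 10 of 26, all of them gene models with provisional Gm names. In the Cre libraries of the same lines 12 of the 14 chromosome 4 genes and 3 of the 7 genes from 5 to 10 Mb of chromosome 9 were again at least 2-fold apart.

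Gm26577, a gene model on chromosome 10, had 1 library far above the rest, at 92.2, 3.52 and 3.01 CPM in Rassf1a GFP and 0.0461, 0.243 and 0 CPM in WT GFP, with a log2 fold change of 8.31 that became 4.98 and did not pass without Rassf1a GFP replicate 1 (adjusted p = 0.333). Mid1-ps1, a pseudogene on the Y chromosome, was at 2.43 ± 0.444 CPM in WT GFP and at 0.0353, 0.0635 and 0.0647 CPM in Rassf1a, Vhl and Vhl/Rassf1a GFP.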
